A study of Mus musculus with 32 samples.

Results

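Snai1, Snai2, Zeb1, Zeb2, Twist1 and Twist2 encode the transcription factors most often linked to the epithelial-mesenchymal transition (EMT), and they are described here in the cells of the midgestation mouse embryo that are not epithelial. The 6 genes were chosen by name, not by their values, out of 23154 genes measured. The cells came from 7 C57BL/6J embryos, of which 3 were collected at E9.5 and 2 at each of E10.5 and E11.5, and from forebrain, hindbrain, heart, somite, skin, lung, intestine and liver, and no treatment or engineered allele is given in the labels. Embryo 2 of E9.5 is labelled female and the others male. No skin or lung cells came from embryo 1 of E9.5, and no heart or brain cells from embryo 3 of E9.5. Single cells were picked by mouth pipette after trypsin digestion and sequenced with unique molecular identifiers (UMIs), each UMI standing for 1 captured transcript molecule. The study sorted its cells into hematopoietic cells (HC), neuronal cells (NC), mesoderm-derived cells (MC) and epithelial cells (EC) by regulon activity, the joint activity of a transcription factor and its predicted targets. After 1 column of each of 14 pairs with the same counts was left out, 869 MC, 382 NC, 246 HC and 304 EC cells remained.

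The Snail proteins (Snai1, Snai2) and the Zeb proteins (Zeb1, Zeb2) are zinc finger repressors that bind E-boxes with the core CACCTG and switch off E-cadherin and other epithelial junction genes. Twist1 and Twist2 are basic helix-loop-helix (bHLH) proteins that bind E-boxes of the form CANNTG together with E-proteins, and Id proteins keep E-proteins from binding DNA. All act when cells leave an epithelium, as in gastrulation, neural crest delamination and the formation of heart cushion mesenchyme. Several have other roles: Zeb1 and Zeb2 act in the developing nervous system, Zeb2 acts in blood and macrophages, and Twist1 and Twist2 act in limb, skull and dermal mesenchyme.

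In the mm10 build, with GENCODE annotation, Snai1 spans chr2:167538195-167542814 on the plus strand, Snai2 chr16:14705852-14709385 on the plus strand, Zeb2 chr2:44983632-45117395 on the minus strand, Twist1 chr12:33957671-33959829 on the plus strand and Twist2 chr1:91801461-91848028 on the plus strand. The antisense gene Zeb2os (chr2:45110707-45114087) overlaps Zeb2, and because the strand used in counting is not given in the sources used here, reads of this pair may not be fully told apart. Zeb2os held 435 UMIs in MC cells against 8089 for Zeb2, 374 against 6163 in NC cells and 457 against 2752 in HC cells.

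Since these factors act through E-boxes, the 250 bases before the start site of Snai1 and of both Twist genes are shown, from RefSeq on GRCm38.p6, plus strand, with any CANNTG in capitals. The stretches are chr2:167537945-167538194 for Snai1, chr12:33957421-33957670 for Twist1 and chr1:91801211-91801460 for Twist2.
Snai1: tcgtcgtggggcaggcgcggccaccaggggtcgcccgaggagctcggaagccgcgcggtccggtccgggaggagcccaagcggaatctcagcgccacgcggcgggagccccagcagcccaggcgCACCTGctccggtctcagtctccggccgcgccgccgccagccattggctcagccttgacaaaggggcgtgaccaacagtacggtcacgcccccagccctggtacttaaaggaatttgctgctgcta
Twist1: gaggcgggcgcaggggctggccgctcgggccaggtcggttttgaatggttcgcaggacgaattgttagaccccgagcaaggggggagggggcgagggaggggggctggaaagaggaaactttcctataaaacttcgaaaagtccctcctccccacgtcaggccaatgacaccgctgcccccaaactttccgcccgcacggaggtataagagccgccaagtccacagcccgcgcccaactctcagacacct
Twist2: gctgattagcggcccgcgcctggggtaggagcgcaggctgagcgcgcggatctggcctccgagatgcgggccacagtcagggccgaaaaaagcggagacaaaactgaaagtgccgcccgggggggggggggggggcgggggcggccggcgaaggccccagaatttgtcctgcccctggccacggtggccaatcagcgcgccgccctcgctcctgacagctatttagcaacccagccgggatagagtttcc
The Snai1 stretch held 1 match to CANNTG, which is CACCTG, 126 bases before the start site. Neither Twist stretch held one. Of 32851 promoter stretches of this length in RefSeq, 66.2% held CANNTG, read on both strands, and 17.2% held CACCTG or its reverse CAGGTG, which is also a CANNTG. RefSeq entries matched 4 of the 6 genes. These letters are described only as such.

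A cell's value was log2(TPM/10 + 1), where TPM is the UMI count scaled to 1000000 UMIs in that cell. The level of a gene in a set of cells is the mean of this value over the cells of 1 embryo, with at least 3 cells, and the embryo is the replicate. Differences below are differences of these log2 levels. Because of the pseudocount they understate the change of genes with low counts. The cells used held 20326 to 2524348 UMIs (median 306271). E9.5 embryos 1 and 2 are labelled HiSeq 2500 and the others HiSeq 4000. embryo 2 of E9.5 was the deepest (median 928653 UMIs), while embryo 1 of E9.5 (298148) lay near embryo 3 of E9.5 (309740.5), and the later embryos had medians of 187427 to 261547. Shares of cells with at least 1 UMI were therefore taken after thinning each cell to 100000 UMIs, which kept 757 MC, 323 NC, 227 HC and 267 EC cells.

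Across the major groups, the Snail and Twist genes were high in MC cells, whereas Zeb1 and Zeb2 were also high in NC cells and Zeb2 in HC cells. Snai1 levels were 1.22 at the lowest, 1.39 at the median and 2.23 at the highest of 7 embryos in MC cells, against 0.02, 0.16 and 0.26 of 6 embryos in NC cells and 0.03, 0.10 and 0.18 of 7 in HC cells. Snai2 levels in MC cells ran from 0.77 through 1.26 to 1.57, with a highest value of 0.17 in NC and 0.09 in HC cells. Every MC embryo thus stood above every NC and HC embryo for both Snail genes. The Twist genes were arranged likewise. Twist1 ran from 0.90 through 1.47 to 1.58 in MC cells and reached 0.16 in NC and 0.33 in HC cells. Twist2 ran from 1.34 through 1.49 to 1.68 in MC cells and reached 0.08 in NC and 0.21 in HC cells. The study built its groups from the same cells, with a Twist2 regulon among the regulons, so these group levels carry no test.

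Zeb1, whose protein is also found in neural progenitors, ran from 1.47 through 1.76 to 1.93 in NC cells and from 1.07 through 1.26 to 1.63 in MC cells, so these ranges overlapped. In HC cells its level was 0.21, 0.45 and 1.06 at the lowest, median and highest embryo. Zeb2 ran from 0.82 through 1.55 to 1.74 in NC cells, from 0.54 through 0.98 to 1.52 in HC cells and from 0.68 through 0.86 to 1.10 in MC cells, and all 3 ranges overlapped. EC cells were lower for both Zeb genes, with highest levels of 0.44 for Zeb1 and 0.31 for Zeb2. By ranges that did not overlap, 0 of the 6 genes were lower in MC than in NC cells, beside 990 of 17425 genes. Higher in MC than in NC cells were 4 of the 6, beside 5.89% of these genes. The count was 5 in MC above HC cells (14.8% of genes), 5 in MC above EC cells (2.5%), 2 in NC above EC cells (4.87%) and 1, Zeb1, in NC above HC cells (14.9%).

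**Figure D1:**
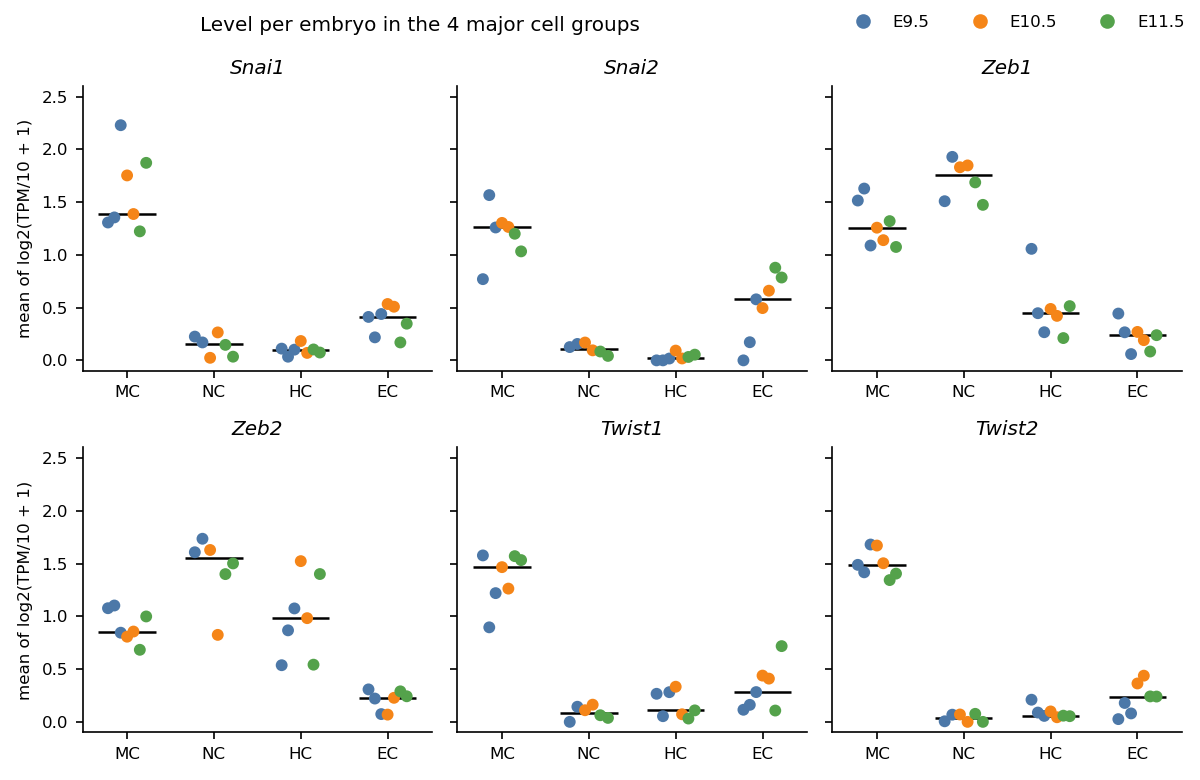
Level per embryo (mean of log2(TPM/10 + 1), y axis) of the 6 genes in the 4 major cell groups (x axis), points coloured by day and lines at the median of embryos. Snai1, Snai2, Twist1 and Twist2 points of MC cells lie above all NC and HC points, while Zeb1 in NC cells (1.47 to 1.93) overlaps MC cells (1.07 to 1.63).

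The shares of cells showed the same arrangement. Snai1 was found in 54.8% of thinned MC cells, 8.67% of NC and 5.29% of HC cells, and Twist2 in 51.4%, 2.48% and 3.52%. For comparison, liver HC cells, which carry red cell markers, held Snai1 in 3.0%, Snai2 in 1.8%, Twist1 in 1.8% and Twist2 in 2.4% of 166 thinned cells (median 451166 UMIs before thinning, against 309609 in MC cells). The erythroid-like HC cluster described below held Snai1, Snai2 and Twist2 in 4.76% each and Twist1 in 11.1% of 63 thinned cells. The Twist2 share of NC cells was close to that of liver HC cells. Whether such low shares are stray counts was not tested. Zeb1 was found in 64.4% of NC, 52.6% of MC and 22.5% of HC cells, and Zeb2 in 57.0%, 39.9% and 48.5%. An MC cell held a mean of 2.89 of the 6 genes, an NC cell 1.44 and an HC cell 0.92, and all 6 were found together in 24 of 757 MC cells. In NC cells, 66.9% held a Zeb gene with no Snail or Twist gene, against 7.66% of MC cells. These shares cover what was captured, since a transcript can be missed in a cell that expresses it.

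The organ of origin does not depend on expression, so organs were compared within MC cells with limma across all genes, each organ against the other 4 weighted equally, with day as a term. Heart, somite, skin, lung and intestine gave 32 embryo levels, and 15619 genes were tested. The heart label was checked against its markers. All 8 cardiomyocyte markers stood at 1 or more in heart MC cells, whose mean level over these markers was 4.93 to 6.03 per embryo against 0.00 to 2.29 elsewhere. The 5 comparisons share samples, since each organ is among the others in 4 of them, and so their results are not independent. At an adjusted p under 0.05, heart MC cells had 3 of the 6 genes lower and 0 higher (of all genes, 22.9% were called, 10.6% higher and 12.3% lower). Somite MC cells had 2 higher and 0 lower (7.06% of all genes called, 4.48% higher and 2.58% lower). Skin MC cells had 4 higher and 0 lower (8.27%, 5.97% and 2.3%), lung MC cells 2 higher and 1 lower (3.6%, 2.25% and 1.35%), and intestine MC cells 1 higher and 3 lower (7.93%, 4.28% and 3.66%). The medians of the 6 differences were -0.59 in heart, 0.02 in somite, 0.79 in skin, -0.01 in lung and -0.44 in intestine. The median of all genes lay between -0.03 and 0.01 in every organ.

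**Figure D2:**
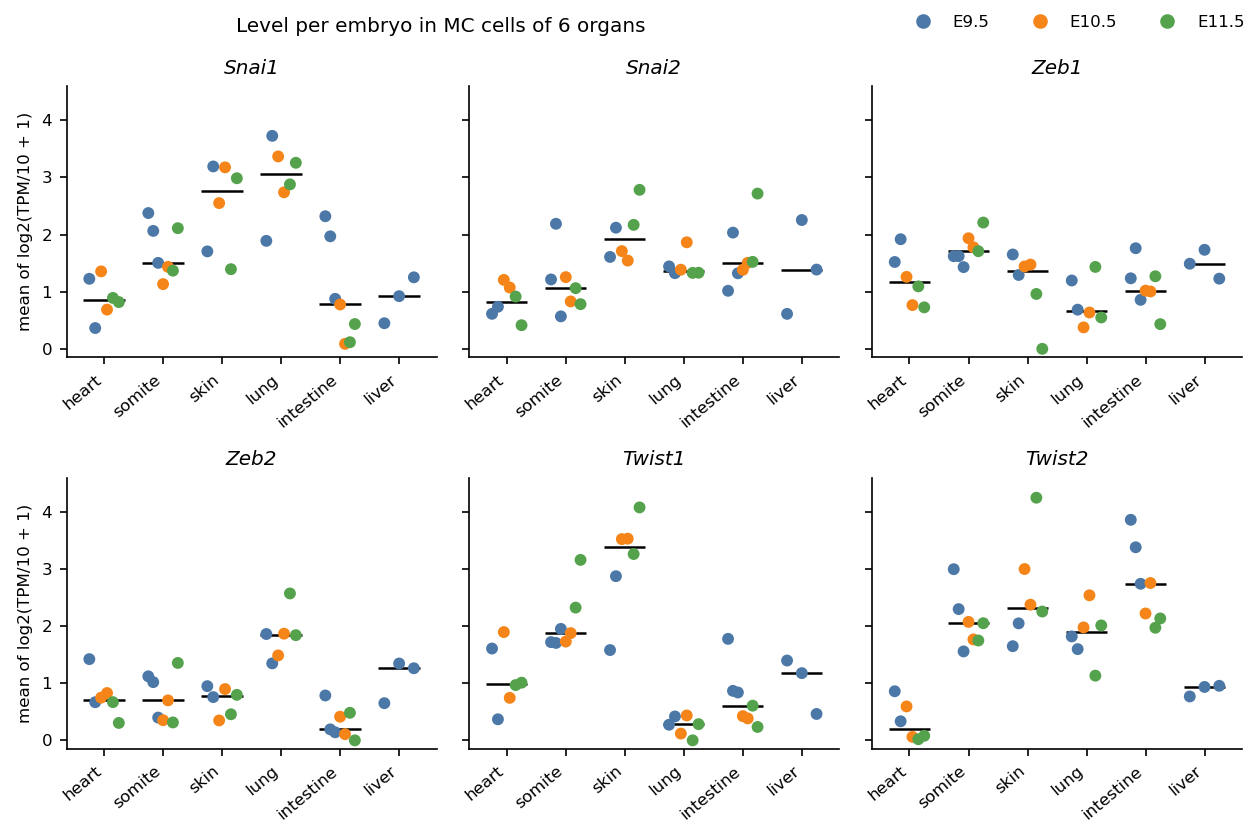
Level per embryo (mean of log2(TPM/10 + 1), y axis) of the 6 genes in MC cells of 6 organs (x axis), points coloured by day and lines at the median of embryos. Twist1 is highest in skin and lies at 0.00 to 0.44 in lung, Twist2 lies at 0.02 to 0.86 in heart against 1.13 or more in the 4 other tested organs, and the liver MC points are from E9.5.

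Snai1 was highest in lung and skin mesenchyme. Its levels in lung MC cells were 1.89 at the lowest, 3.07 at the median and 3.73 at the highest of 6 embryos, in skin 1.39, 2.77 and 3.19 of 6, in somite 1.13, 1.5 and 2.38 of 7, in heart 0.36, 0.85 and 1.36 of 6, and in intestine 0.09, 0.78 and 2.32 of 7. Neighbouring organs in this order overlapped, but lung lay above heart in every embryo. Lung exceeded the mean of the other organs by 1.48 ± 0.28 (SE), or 2.79-fold on this scale, in 6 of 6 embryos (limma, adjusted p = 0.00081). Skin was higher by 0.89 ± 0.28 in 6 of 6 embryos (adjusted p = 0.041). Heart fell below the others by -1.13 ± 0.28 with 0 of 6 embryos higher (adjusted p = 0.0028), and intestine by -1.10 ± 0.26 with 2 of 7 higher (adjusted p = 0.0064). The somite difference was -0.13, with a 95% interval of -0.67 to 0.40. The lung call held in each alternative run. The skin call was lost without embryo 3 of E9.5 (0.78, adjusted p = 0.14), embryo 1 of E10.5 (0.89, 0.11), embryo 2 of E10.5 (0.68, 0.24) or embryo 2 of E11.5 (0.80, 0.13), with at least 5 cells per level (0.74, 0.15), without the filter on low values (adjusted p = 0.060) and with edgeR (1.08, 0.14). The intestine call was lost without embryo 2 of E10.5 (-0.96, 0.052), and the heart call with edgeR on summed UMIs (-0.62, 0.43).

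Snai2, the Snail gene also known from neural crest and dermal cells, was less spread between organs. Its levels were 1.54, 1.92 and 2.78 in skin, 1.02, 1.51 and 2.72 in intestine, 1.32, 1.36 and 1.86 in lung, 0.57, 1.06 and 2.19 in somite, and 0.41, 0.83 and 1.21 in heart MC cells (lowest, median and highest embryo). Skin and lung lay above heart in every embryo. Skin was higher by 0.72 ± 0.20 in 6 of 6 embryos (adjusted p = 0.018) and heart lower, at -0.73 ± 0.20, with 0 of 6 higher (adjusted p = 0.0071). The lung difference was 0.04, with an interval of -0.36 to 0.45. The skin call was lost without embryo 3 of E9.5 (0.65, adjusted p = 0.079), embryo 1 of E11.5 (0.68, 0.093) or embryo 2 of E11.5 (0.57, 0.063), with at least 5 cells per level (0.57, 0.10), with cells thinned (0.42, 0.29) and with edgeR (0.32, 0.65), and the heart call with edgeR (-0.77, 0.073).

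Zeb1 was higher in somite MC cells than in the other organs. Its levels there were 1.43, 1.71 and 2.21 at the lowest, median and highest of 7 embryos, against 0.00, 1.37 and 1.65 in skin, 0.73, 1.18 and 1.92 in heart, 0.43, 1.02 and 1.76 in intestine and 0.38, 0.66 and 1.43 in lung. The lowest skin value came from the 4 cells of embryo 2 of E11.5. The somite difference was 0.68 ± 0.18, higher in 6 of 7 embryos (adjusted p = 0.015). It was no longer called without embryo 1 of E10.5 (0.64, adjusted p = 0.070), embryo 2 of E10.5 (0.66, 0.064) or embryo 2 of E11.5 (0.49, 0.073). In lung Zeb1 differed by -0.47 (interval -0.86 to -0.09, adjusted p = 0.20), and in heart by 0.03 (interval -0.35 to 0.41).

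Zeb2 took another order, with lung MC cells at the top and intestine MC cells at the bottom. Levels were 1.35, 1.85 and 2.57 in lung, 0.35, 0.78 and 0.95 in skin, 0.30, 0.71 and 1.42 in heart, 0.31, 0.70 and 1.35 in somite, and 0.00, 0.19 and 0.79 in intestine. Lung exceeded skin and intestine in every embryo. The lung difference was 1.2 ± 0.16, or 2.30-fold on this scale, in 6 of 6 embryos (adjusted p = 1e-05), and the intestine difference was -0.71 ± 0.16 with 0 of 7 embryos higher (adjusted p = 0.0027). Both calls held in every alternative run. Over 37 embryo levels of MC cells in all organs, the correlation of Zeb2 was 0.57 with Snai1 and -0.03 with Zeb1. These are descriptions, since levels from 1 embryo share dissection and depth.

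Twist1 separated skin and somite from lung. Its levels were 1.58, 3.39 and 4.08 at the lowest, median and highest embryo in skin, 1.70, 1.88 and 3.16 in somite, 0.37, 0.99 and 1.89 in heart, 0.23, 0.61 and 1.78 in intestine, and 0.00, 0.28 and 0.44 in lung MC cells. Skin and somite overlapped each other, and lung lay below both in every embryo. Skin exceeded the others by 2.09 ± 0.25, or 4.27-fold on this scale, in 6 of 6 embryos (adjusted p = 2.5e-07), and lung lay below them by -1.51 ± 0.25 with 0 of 6 higher (adjusted p = 0.00012). Both held in every alternative run. Somite was higher by 0.77 ± 0.23 in 7 of 7 embryos (adjusted p = 0.038) and intestine lower, at -0.89 ± 0.23, with 1 of 7 higher (adjusted p = 0.013). The somite call was lost without embryo 2 of E9.5 (0.71, adjusted p = 0.053), embryo 3 of E9.5 (0.79, 0.075), embryo 2 of E10.5 (0.80, 0.090), embryo 1 of E11.5 (0.72, 0.12) or embryo 2 of E11.5 (0.61, 0.15), and without the filter on low values (adjusted p = 0.051). The intestine call was lost without embryo 1 of E10.5 (-0.80, 0.064), embryo 2 of E10.5 (-0.83, 0.071), embryo 1 of E11.5 (-0.87, 0.050) or embryo 2 of E11.5 (-0.73, 0.054). In heart the difference was -0.46 (adjusted p = 0.19) over embryo means of log values and 1.03 (adjusted p = 0.077) with edgeR on summed UMIs, so its direction depended on the scale.

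Twist2, the near relative of Twist1, set heart MC cells as a whole apart from those of the other 4 tested organs. Liver MC cells were not tested, and the Twist2 level differed between heart clusters. Both are described below. Twist2 levels were 0.02, 0.21 and 0.86 in heart MC cells. They were 1.97, 2.74 and 3.86 in intestine, 1.65, 2.31 and 4.25 in skin, 1.56, 2.05 and 3.0 in somite, and 1.13, 1.90 and 2.54 in lung. Every heart embryo lay below every embryo of the other 4 organs. The heart difference was -1.97 ± 0.26, or 0.254 of the level elsewhere on this scale, with 0 of 6 embryos higher (adjusted p = 8.5e-07), and it held in every alternative run. Intestine exceeded the others by 1.0 ± 0.25 in 7 of 7 embryos (adjusted p = 0.0098) and skin by 0.86 ± 0.26 in 5 of 6 (adjusted p = 0.036). The intestine call was lost without embryo 2 of E9.5 (0.84, adjusted p = 0.062), in the HiSeq 4000 embryos alone (0.70, 0.12) and with edgeR (1.09, 0.069). The skin call was lost without embryo 1 of E10.5 (0.78, 0.16), embryo 2 of E10.5 (0.92, 0.080), embryo 1 of E11.5 (0.44, 0.33) or embryo 2 of E11.5 (0.90, 0.087), with cells thinned (0.77, 0.11), with at least 5 cells per level (0.91, 0.056), without the filter on low values (adjusted p = 0.053) and with edgeR (1.28, 0.054). In lung, where Twist1 was low, the Twist2 difference was -0.07, with an interval of -0.61 to 0.47.

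The share of cells with both Twist genes varied between organs. Of thinned cells, 69.5% of skin MC and 59.9% of somite MC cells held both. In lung MC cells 8.46% held both and 55.4% held Twist2 without Twist1, and in intestine 23.1% and 55.1%. In heart MC cells the balance was the other way, with 6.38% holding both, 33.5% Twist1 without Twist2 and 4.79% Twist2 without Twist1. For the Snail genes, 40.8% of lung MC cells held both and 40.8% held Snai1 without Snai2, while in intestine 32.1% held Snai2 without Snai1. The Zeb genes were found together in 3.85% of intestine MC and 15.4% of lung MC cells, against 50.6% of hindbrain NC cells.

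**Figure D3:**
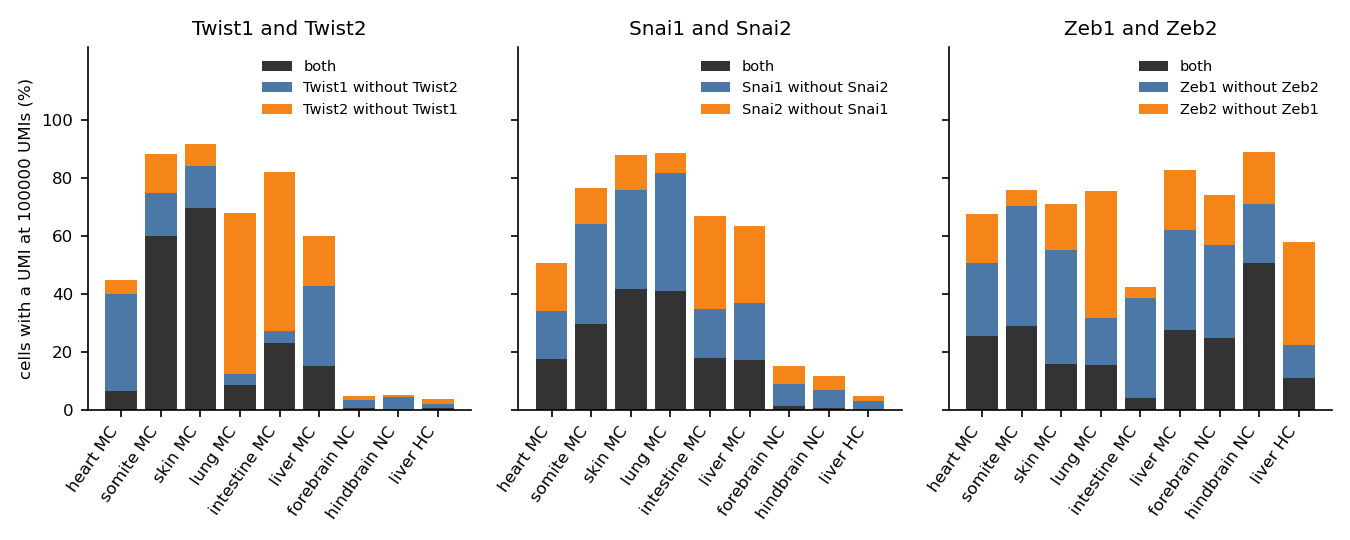
Share of cells (y axis, percent of cells thinned to 100000 UMIs) with both genes or only 1 gene of each pair, by organ and group (x axis). Both Twist genes were found in 69.5% of skin MC cells and in 8.46% of lung MC cells, and both Zeb genes in 50.6% of hindbrain NC cells.

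Heart MC cells were split further, since they hold several cell types. The 236 cells were grouped into 6 clusters on 1500 variable genes without the 6 factors, and the clusters are described with no test, as they come from the same cells. One cluster of 59 cells was epicardial-like, led by Dcn, Upk3b and Upk1b, with all 7 epicardial markers found. One of 52 cells was led by Ramp2 and Eng and held 7 of 8 cushion mesenchyme and 8 of 8 endothelial markers, so it was left unnamed. The 4 others, with 40, 39, 25 and 21 cells, held all 8 cardiomyocyte markers and were cardiomyocyte-like. Snai1 stood at 2.42 in the cluster led by Ramp2 and Eng, 0.95 in the epicardial-like and 0.09 to 0.29 in the cardiomyocyte-like clusters. Snai2 stood highest in the epicardial-like cluster (1.70), at 1.34 in the Ramp2 and Eng cluster and at 0.05 to 0.32 in cardiomyocyte-like cells. Epicardial cells are known to give rise to mesenchyme of the heart wall.

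Twist1 was at 3.10 in the cluster led by Ramp2 and Eng, 0.80 in the epicardial-like cluster and 0.23 to 0.52 in the cardiomyocyte-like clusters. Of the 5 embryos with at least 3 cells in that cluster, 4 had a Twist1 level of 3.92 to 4.00, and embryo 2 of E9.5 had 0.76. The same embryo was low there for Snai1 (0.87, against 2.22 to 3.30 in the others) and high for Zeb1 (2.72, against 0.93 to 2.39). Twist2 stood at 1.41 in that cluster and at 0.11 or less in the other 5, and within the cluster it ran from 0.00 in embryo 1 of E11.5 to 2.79 in embryo 1 of E9.5. Zeb1 was at 2.11 in the Ramp2 and Eng cluster, 0.99 in the epicardial-like and 0.64 to 1.39 in the cardiomyocyte-like clusters. Zeb2 stood at 1.26, 1.05 and 0.11 to 0.92. The cardiomyocyte-like clusters with 40 and 21 cells were also shallow, with median depths of 99577.5 and 82799 UMIs.

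**Figure D4:**
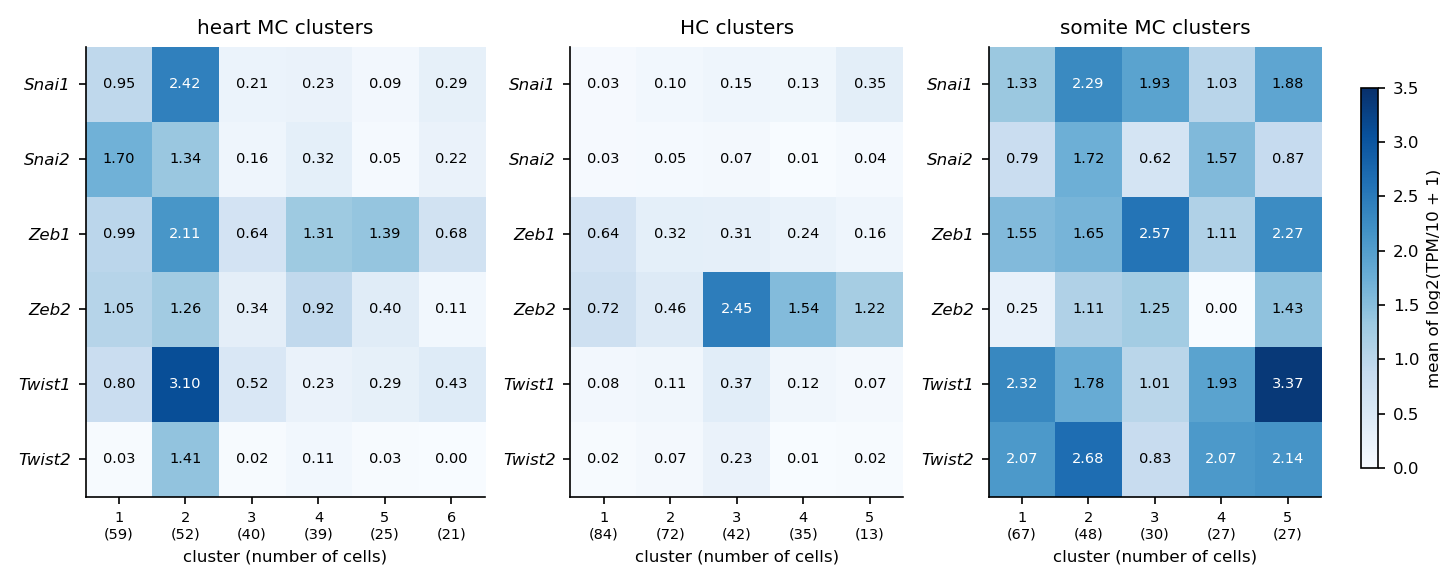
Mean over cells of log2(TPM/10 + 1) (colour and printed value) of the 6 genes (rows) in clusters of heart MC, HC and somite MC cells (columns, numbered by falling size, with cell numbers). In heart, cluster 2, led by Ramp2 and Eng, holds the highest Twist1 (3.10) and Snai1 (2.42), and in HC cells Zeb2 is highest (2.45) in cluster 3, led by C1qb.

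In the somite, 1 cluster of 30 cells led by Ankrd1 and Myog was myotome-like, with all 7 myotome markers found. It had the highest Zeb1 level of the 5 somite clusters (2.57, by embryo 1.54 to 3.21) and the lowest Twist1 (1.01) and Twist2 (0.83). Twist1 stood at 1.78 to 3.37 and Twist2 at 2.07 to 2.68 in the other 4 clusters. The cluster with Twist1 at 3.37 held 27 cells, of which 92.6% came from embryo 2 of E11.5, so cluster and embryo cannot be told apart. It too held all 7 myotome markers, at a lower mean marker level (2.98 against 4.17), and was left unnamed. Hoxc13, Acta1 and Sln led it, and Ryr1, Tnnt2, Myl1 and Myl4 were also among its leading genes. Of the 5 somite clusters, the lowest Twist1 (1.01) and the highest (3.37) thus both fell in clusters with all 7 myotome markers. Embryo 2 of E11.5 also had the highest somite Twist1 level, 3.16 against 1.70 to 2.32 in the 6 others. Another cluster, of 48 cells, held E9.5 cells of embryos 1 and 2 only and had the highest Snai1 (2.29) and Twist2 (2.68).

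MC cells of the liver, nearly all from E9.5, were not tested and are given by embryo. In embryos 1, 2 and 3, Snai1 was 0.45, 0.92 and 1.25, Snai2 0.61, 2.25 and 1.39, Zeb1 1.49, 1.73 and 1.23, Zeb2 0.65, 1.34 and 1.26, Twist1 1.40, 1.18 and 0.46, and Twist2 0.77, 0.93 and 0.95. The Twist2 values lay below those of the 4 other organs outside the heart, and that of embryo 1 lay within the heart range. The brain also gave a few MC cells. Among 13 forebrain MC cells, the 10 of embryo 1 of E10.5 had Snai1 at 2.61, Zeb2 at 2.19, Twist1 at 1.41 and Twist2 at 0.77, and 3 of embryo 2 of E9.5 had Snai1 at 1.41 and Twist2 at 0.00. Neural crest markers stood at a mean level of 1.22 in the forebrain MC cells and 0.07 in forebrain NC cells.

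In the brain, NC cells held Zeb1 and Zeb2 with little of the other factors. Neuron and neural progenitor markers, 8 each, were all found in both regions. Zeb1 levels in hindbrain NC cells were 1.51, 2.02 and 2.30 at the lowest, median and highest of 6 embryos, against 0.79, 1.57 and 2.14 in the forebrain. Zeb2 levels were 0.86, 1.85 and 2.58 in hindbrain and 0.13, 1.0 and 1.84 in forebrain. Both genes were lower in the forebrain in 5 embryos and higher in 1 of 6, and the ranges overlapped. The forebrain minus hindbrain differences were -0.52 for Zeb1 (interval -0.99 to -0.04, adjusted p = 0.36) and -0.71 for Zeb2 (interval -1.37 to -0.04, adjusted p = 0.37). Without embryo 1 of E9.5 they were -0.33 and -0.47, without embryo 1 of E10.5 Zeb2 was -0.46, and in the HiSeq 4000 embryos alone they were -0.26 and -0.40. With limma 0 of the 6 genes were called (1.24% of 14195 genes were), and 2 had an unadjusted p under 0.05. edgeR called 0, with 0 at an unadjusted p under 0.05, beside 1817 of 14195 genes. The count of all genes at that unadjusted threshold was not taken with limma. Snai1, Snai2, Twist1 and Twist2 had embryo levels of at most 0.51 in either region. The largest of these was Snai1 at 0.51 in the forebrain of embryo 2 of E10.5, against 0.00 to 0.26 in the other embryos.

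Within forebrain NC cells, Zeb1 was highest (2.01) in the interneuron precursor-like cluster led by Isl1 and Dlx genes, 1.72 in the neural progenitor-like cluster and 1.30 in the neuron-like cluster. The corresponding Zeb2 levels were 1.43, 0.78 and 1.37. After thinning, Zeb1 was found in 61.5%, 61.5% and 52.4% of cells of these clusters, so the order was not kept. The neuron-like cluster was shallow (median 93284.5 UMIs). In embryo 1 of E11.5 Zeb1 was lower in the interneuron precursor-like than in the progenitor-like cluster (1.79 against 2.33). It was higher in embryo 2 of E10.5 (2.80 against 1.89) and embryo 2 of E11.5 (1.37 against 0.97). The remaining 2 forebrain clusters each came from a single E9.5 embryo, with Zeb1 at 0.76 and 1.73 (37.2% and 74.4% of thinned cells) and Zeb2 at 0.70 and 1.32. In the hindbrain, Zeb1 was 1.68 to 2.41 and Zeb2 1.35 to 2.27 over 4 clusters. The highest Zeb1 (2.41) was in neurons led by Sncg and Isl2 and the highest Zeb2 (2.27) in a cluster of E9.5 cells alone. Of thinned hindbrain NC cells, 50.6% held both Zeb genes, 20.4% Zeb1 alone of the pair and 17.9% Zeb2 alone. In the forebrain the shares were 24.7%, 32.2% and 17.1%.

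In HC cells Zeb2 was the main factor found. The 246 cells gave a macrophage-like cluster of 42 cells led by C1qb, with all 8 macrophage markers found, in which Zeb2 stood at 2.45. Its leading genes also included Stfa1, BC100530 and S100a8, which are not among these markers, so the cluster may be mixed. By embryo its Zeb2 level was 1.67 in embryo 3 of E9.5, 2.79 and 2.63 at E10.5 and 2.20 and 2.42 at E11.5. A cluster of 35 cells led by Tuba8, with Cpa3 and Gata2, had Zeb2 at 1.54, and 13 cells led by Ppbp, a platelet gene, had 1.22. The erythroid-like cluster of 72 cells, with Alas2 among its leading genes, had 0.46, and an unnamed cluster of 84 cells 0.72. Zeb1 was low in the macrophage-like cells (0.31) and highest in the unnamed cluster (0.64). Of the Snail and Twist genes, the highest level in any HC cluster was that of Twist1 in the macrophage-like cells (0.37).

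HC cells outside the liver were compared with those of the liver, the seat of blood formation at these stages. The highest differences were 0.47 for Zeb2 (interval -0.31 to 1.25, adjusted p = 0.47), 0.31 for Twist1 (adjusted p = 0.19), 0.21 for Twist2 (adjusted p = 0.065) and 0.21 for Snai1 (adjusted p = 0.12). Without embryo 2 of E11.5, Zeb2 was 0.29 and Twist1 0.19, and with cells thinned Twist2 was 0.10. The Zeb2 difference was 0.72 with a block on embryo (adjusted p = 0.11) and 0.79 in the HiSeq 4000 embryos alone (0.22). Snai1, Twist1 and Twist2 were higher outside the liver in 4 of 4 embryos with both, and Zeb2 in 3 of 4. With limma 0 of 6 genes were called (2.08% of 12604 genes were), and 3 had an unadjusted p under 0.05. edgeR called 0, with 2 at an unadjusted p under 0.05, beside 2800 of 12604 genes. The count of all genes at that unadjusted threshold was not taken with limma. With embryo as a block, Snai1 (0.29, adjusted p = 0.045) and Twist1 (0.46, adjusted p = 0.036) were called, and genes called rose from 262 to 1481. Snai1 was also called in the HiSeq 4000 embryos alone (0.28, adjusted p = 0.044), and Twist2 with log2(TPM + 1) (0.69, adjusted p = 0.050). Markers of other cells moved with these differences. The mean level over 24 mesenchymal adhesion and matrix genes was 0.38 to 1.16 per embryo outside the liver and 0.21 to 0.57 in the liver, and over 8 cardiomyocyte markers 0.58 to 3.70 against 0.01 to 0.13. Over 8 macrophage markers it was 0.01 to 5.89 (median 2.16, all 8 markers at 1 or more) against 0.54 to 1.12 (median 0.63, 2 markers at 1 or more). Their part in the differences of the 6 genes was not tested. Twist1 was found in 33.3% of 15 thinned heart HC cells and 50.0% of 14 forebrain HC cells, whereas the 15 hindbrain HC cells had a Twist1 level of 0.00 in both embryos measured.

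Levels were also followed over the 3 days, with a slope in log2 units per day in each of 7 sets, in 1 limma fit of 44 embryo levels and 16426 genes. In heart and brain, E9.5 embryos were sequenced only on the HiSeq 2500 and later ones on the HiSeq 4000, so platform and the step from E9.5 cannot be told apart there. Twist1 in skin MC cells was called. Its levels were 1.58 and 2.87 at E9.5, 3.52 and 3.53 at E10.5 and 3.26 and 4.08 at E11.5. The slope was 0.72 ± 0.20 per day (adjusted p = 0.041), 1 of 6 genes beside 3.08% of all genes in skin. It was lost without embryo 2 of E9.5 (0.36, adjusted p = 0.57), embryo 2 of E10.5 (0.72, 0.071) or embryo 2 of E11.5 (0.63, 0.29), with at least 5 cells per level (0.63, 0.25), with cells thinned (0.67, 0.069), with log2(TPM + 1) (0.99, 0.14) and with edgeR (0.54, 0.88). embryo 2 of E9.5 was the single HiSeq 2500 embryo in this set. In the HiSeq 4000 embryos alone the slope was 0.36 (adjusted p = 0.51).

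Some other slopes came near the threshold. Twist2 in skin was 1.65 and 2.05 at E9.5, 3.0 and 2.37 at E10.5 and 4.25 and 2.25 at E11.5, a slope of 0.70 ± 0.21 (adjusted p = 0.061). Without embryo 2 of E11.5, which had 4 cells, it was 1.15 (adjusted p = 0.0051), without embryo 1 of E11.5 it was 0.29 (0.59), and edgeR gave 0.69 (0.64). Twist2 in intestine was 3.86, 3.38 and 2.74 at E9.5, 2.22 and 2.75 at E10.5 and 1.97 and 2.13 at E11.5, a slope of -0.65 ± 0.19 (adjusted p = 0.052) that was -0.78 without embryo 3 of E9.5 (adjusted p = 0.019) and -0.36 in the HiSeq 4000 embryos alone (0.73). The 4 later embryos stood at 2.75 or lower. Snai1 in intestine was 2.32, 1.97 and 0.87 at E9.5 and 0.09 to 0.78 later, a slope of -0.76 ± 0.24 (adjusted p = 0.067) of -0.93 without embryo 3 of E9.5 (adjusted p = 0.016) and of -0.28 in the HiSeq 4000 embryos alone (0.82). In intestine 3.56% of genes were called.

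In the brain, Zeb2 in hindbrain NC cells was 2.58 and 2.06 at E9.5, 2.09 and 1.02 at E10.5 and 0.86 and 1.65 at E11.5 (slope -0.53 ± 0.20, adjusted p = 0.13). In forebrain NC cells it was 0.68 and 1.32, then 0.13 and 0.66, then 1.84 and 1.38 (slope 0.31 ± 0.20, adjusted p = 0.42). The difference of these slopes was 0.84 (interval 0.25 to 1.43, adjusted p = 0.28). With limma 0 of the 6 slopes were called in hindbrain and 0 in forebrain, beside 4.91% and 14.2% of all genes. At an unadjusted p under 0.05 there were 1 and 0. The count of all genes at that unadjusted threshold was not taken with limma, here or below. edgeR called 1 in hindbrain, Twist2 (adjusted p = 0.046), whose embryo levels there were at most 0.10. In heart, somite and lung limma also called 0 of 6, beside 7.91%, 0.828% and 3.54% of all genes. At an unadjusted p under 0.05 it had 1, 1 and 0. edgeR called 0 in each. It had 1, 0 and 0 at an unadjusted p under 0.05, beside 1404, 1516 and 2010 of 16426 genes. Somite Twist1 had a slope of 0.45 (adjusted p = 0.40) and heart Zeb1 one of -0.40 (adjusted p = 0.21). The slope of Zeb1 differed between somite and heart by 0.61 (interval 0.08 to 1.14, adjusted p = 0.27), and no slope difference was called for any of the 6 genes with limma, with or without embryo as a block, or with edgeR. At an unadjusted p under 0.05, limma had 1 in each of the 2 slope differences (0.718% of all genes were called for forebrain minus hindbrain and 2.0% for somite minus heart).

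**Figure D5:**
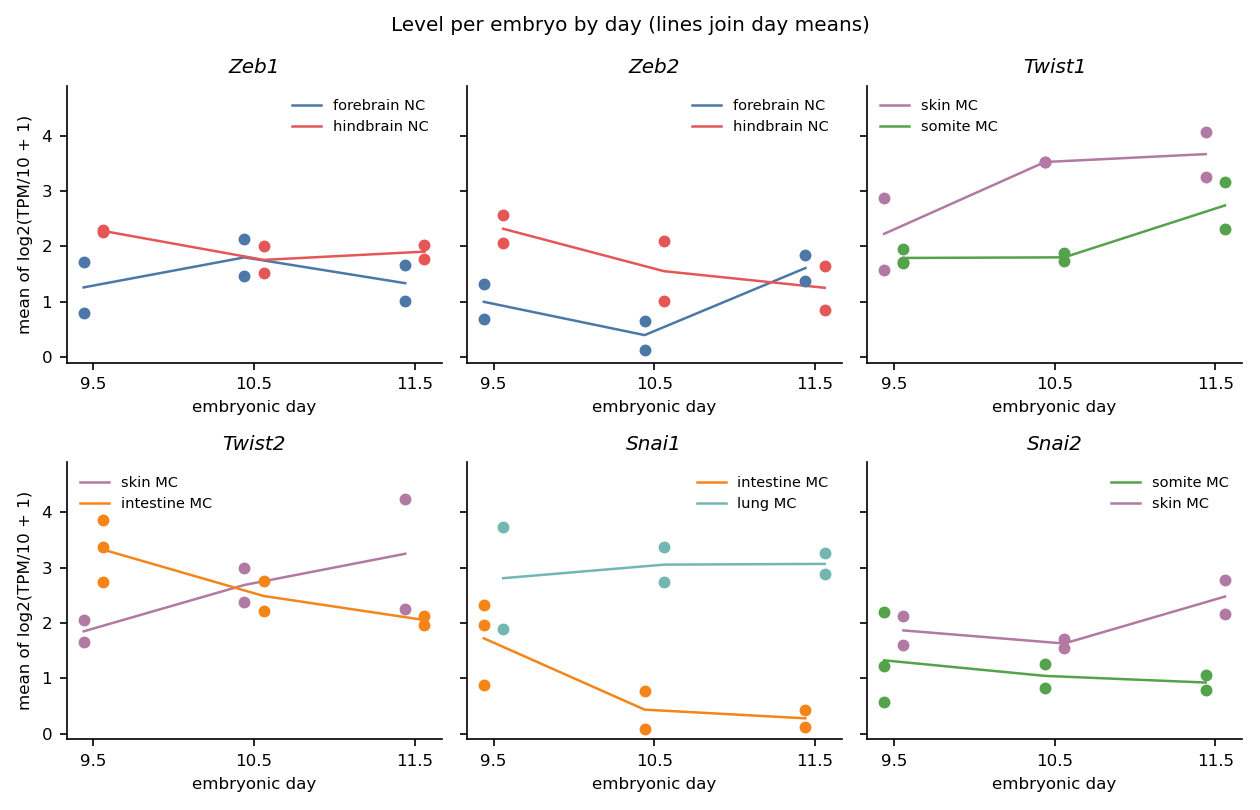
Level per embryo (mean of log2(TPM/10 + 1), y axis) by embryonic day (x axis) for each gene in 2 sets of cells, with lines joining the day means. Skin Twist1 goes from 1.58 and 2.87 at E9.5 to 3.26 and 4.08 at E11.5, and intestine Twist2 from 2.74 to 3.86 at E9.5 to 1.97 and 2.13 at E11.5.

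The bHLH partners of the Twist proteins were read in the same comparisons. The E-protein genes Tcf3, Tcf4 and Tcf12 and the inhibitors Id1 to Id4 were all tested. The background of the list counts is the share of all genes called higher and lower, which was 10.6% and 12.3% in heart, 4.48% and 2.58% in somite, 5.97% and 2.3% in skin, 2.25% and 1.35% in lung and 4.28% and 3.66% in intestine. In heart MC cells 3 of 7 were lower and 0 higher, namely Tcf12 (-1.94), Tcf4 (-1.83) and Tcf3 (-1.15), with a list median of -0.31 beside -0.03 for all genes. In somite 2 were higher, Tcf4 (1.37) and Tcf12 (1.36), and Id2 was lower (-1.63). Lung had Tcf12 higher (1.46), intestine Tcf3 higher (0.89) with Tcf12 (-1.32) and Id3 (-1.23) lower, and skin 0 of 7 either way. In forebrain against hindbrain NC cells, where 1.24% of all genes were called, 4 of 7 were lower, namely Id3 (-2.02), Id2 (-1.82), Id1 (-1.76) and Tcf12 (-1.38), with a list median of -1.38.

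Relatives of Twist were called in each of the 5 organs. Of 8 tested, heart had 2 higher, led by Hand2 (2.05), and 2 lower. Somite had 1 higher, Tcf15 (2.30), known as paraxis, and 3 lower, and intestine had 2 higher, Hand1 (3.29) and Tcf21 (2.38). In skin 4 were lower, led by Tcf21 (-1.91), and in lung Msc was higher (0.88) and 3 were lower. Of 20 other transcription factors of EMT and mesenchyme, skin had 5 higher (5.97% of all genes), led by Msx2 (4.38), Prrx1 (3.53) and Prrx2 (1.87), and 3 lower. Lung had 3 higher, led by Tbx3 (2.16) and Tbx2 (1.55), and 2 lower, and somite 3 higher, among them Foxc1 (1.22), and 1 lower. Intestine had 1 higher, Ets1 (1.19), and 8 lower, led by Sox9 (-2.21), and heart 0 higher and 2 of 20 lower, among them Prrx1 (-1.29), where 12.3% of all genes were lower. Of 10 tested factors that oppose EMT, the called ones in MC organs changed by at most 0.34.

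The genes that these factors are known to repress or that mark mesenchyme were counted likewise. Of 20 epithelial junction and keratin genes, 12 were lower and 0 higher in somite (2.58% and 4.48% of all genes), led by Krt8 (-1.99) and Krt18 (-1.69). In intestine 9 were higher and 0 lower (4.28% and 3.66%), led by Krt8 (1.58), Krt18 (1.52) and Spint2 (1.47), and in skin 0 were called. Heart had 5 higher, led by Krt19 (1.58) and Dsp (1.45), and 5 lower, led by Cldn6 (-0.79), and lung had Krt19 lower (-0.74). The mean level over the list was 0.66 to 1.33 per embryo in intestine and 0.13 to 0.36 in somite MC cells, and whether epithelial RNA bears on the intestine values of the 6 factors was not tested. Of 27 mesenchymal genes, 10 were higher in skin (5.97% of all genes), led by Col1a2 (2.70), Col1a1 (2.66) and Cdh11 (2.44), and 0 lower. Heart had 9 higher, led by Acta2 (3.83), and 7 lower, led by Col3a1 (-2.15), beside 10.6% and 12.3% of all genes. Somite had 1 higher and 8 lower, led by Col5a2 (-1.87), intestine 4 higher and 6 lower, led by Pcolce (-2.05), and lung 2 higher and 0 lower.

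Next were 34 tested genes, mostly of the TGF-beta, BMP and Notch pathways that induce EMT factors. The list also holds inhibitors and targets of these pathways, so its counts do not measure how active a pathway was. Heart had 11 higher, led by Eng (1.06) and Smad6 (0.96), and 2 lower, beside 10.6% and 12.3% of all genes. Lung had 3 higher, led by Tgfb2 (1.23), and 2 lower (2.25% and 1.35% of all genes), and intestine 3 higher and 6 lower (4.28% and 3.66%), led by Tgfb2 (-2.06). Somite had 3 higher, led by Heyl (0.81), and 3 lower, and skin 2 higher, led by Bmp7 (0.88), and 3 lower. In forebrain against hindbrain NC cells 0 of 32 tested were called, and in HC cells outside the liver 1 of 26, Tgfbr3 (-0.62), was lower.

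The genes whose levels ran most like each factor were sought over 89 embryo levels of all organs and groups, among 12464 genes, as a description. Nearest to Snai1 were Cdh11 (r = 0.82), a mesenchymal cadherin, and Ednra (0.81), the endothelin A receptor. Nearest to Snai2 were the collagen genes Col5a2 (0.84) and Col3a1 (0.81). Nearest to Twist1 were Colec12 (0.87) and the transcription factor gene Prrx1 (0.83), and nearest to Twist2 were Mmp2 (0.82), a matrix metalloproteinase, and Col3a1 (0.79). The Zeb genes had less close neighbours, with Kif1b (0.69), a kinesin, and Ncam1 (0.68), a neural adhesion molecule, for Zeb1 and Abcd2 and Prex1 (both 0.59) for Zeb2. Among the factors, Twist1 and Twist2 correlated at 0.64 over all 89 levels and at 0.33 over the 37 MC levels, and Zeb1 and Zeb2 at 0.47 and -0.03. Levels from 1 embryo and from cell groups of very different type enter these values together.

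EC cells are given for contrast only. In skin EC cells Snai2 ran from 0.94 to 2.82 over 6 embryos and Twist1 from 0.35 to 1.64, whereas Zeb1 was at most 0.38. These Snai2 values overlapped those of skin MC cells (1.54 to 2.78). In thinned skin EC cells Snai2 was found in 73.8%, against 6.7% in intestine and 12% in lung EC cells.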

How the data were processed

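The authors deposited 1 table per sample with a value per gene and cell that they call TPM, which is CPM: UMIs of a gene scaled to 1000000 UMIs in the cell (per the labels and methods, TopHat2 2.0.12, mm10, HTSeq). Whole UMIs were recovered from these values for 100% of values above 0, within 0.05 UMI. Of 1916 cells, the 1819 that the study kept were used, with its 4 cell groups, less 1 of each of 14 pairs of columns with identical counts, and 1801 had a group. No doublet caller was run, as cells were picked singly.

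The embryo was the replicate (7 embryos, at least 3 cells per level). Embryo means of log2(TPM/10 + 1) were fitted with limma 3.58.1 in R 4.3.3, with Benjamini-Hochberg adjustment over all genes at 1 or more in at least 3 of the compared cells, and called at an adjusted p under 0.05. edgeR 4.0.16 (quasi-likelihood, summed UMIs) was an alternative. The fits were tested on simulated data. Intervals are 95%. Intervals and p-values rest on 1 spread between these few embryos per gene, shared by all sets of a fit. They do not measure the spread within 1 named set. The slope of Twist2, for example, has an SE of 0.21 in both hindbrain NC and skin MC cells. Organs of 1 embryo are paired by the labels. Deviations of levels of the same embryo correlated at a median of 0.04 in MC cells (59 pairs, -0.09 to 0.42). The median was -0.11 in NC (6 pairs) and 0.27 in HC cells (4 pairs). For different embryos, NC and HC cells gave the same values with the sign reversed (0.11 and -0.27), and MC cells gave -0.04. The different-embryo values are therefore no independent comparison. These correlations cannot decide whether the pairing may be ignored. Clusters used 15 principal components of 1500 genes, Ward linkage and the numbers of clusters that the study gives.

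The 6 genes, gene lists and markers were chosen with earlier results of these data known. Named are the 6 genes, the closest genes by correlation (up to 5 for each) and, of each list, the called members with the largest differences. Keeping both columns of the identical pairs was an alternative chosen after seeing the data. Some genes that this rule would name are not reported here.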

Additional observations from a re-analysis of the deposited data

Results flagged for a closer look

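In groups of 4 to 10 embryos, 1 embryo was tested for standing far from the rest by Dixon's criterion. It did so in 9 of 66 pairs of a gene and a set of cells. The criterion's rate of about 1 in 20 holds for independent normal values. Here days are mixed, major groups contain the organ sets and some levels lie near 0, so 9 of 66 cannot be set against that rate. In somite MC cells, E11.5 embryo 2 had Twist1 at 3.16 (30 cells, the others 1.70 to 2.32), and E9.5 embryo 2 had Snai2 at 2.19 (others 0.57 to 1.26). In lung MC cells, E10.5 embryo 2 had Snai2 at 1.86 (others 1.32 to 1.44). In intestine MC cells, E9.5 embryo 1 had Twist1 at 1.78 from 7 cells (others 0.23 to 0.87). Among NC cells of all organs, E10.5 embryo 2 had Zeb2 at 0.82 from 56 cells (others 1.40 to 1.74). Among HC cells, E9.5 embryo 1, with 3 cells, had Zeb1 at 1.06 (others 0.21 to 0.51) and Twist2 at 0.21 (others 0.04 to 0.10). At levels near 0, Twist2 was 0.23 in the 9 forebrain NC cells of E10.5 embryo 1 (others 0.00 to 0.06) and 0.10 in hindbrain NC cells of E11.5 embryo 1 (others 0.00 to 0.01).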

How the results depend on the processing

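With 5 to 7 embryos per set, few cells in some of them and shallow cells, small differences were not detectable. Of the 96 differences and slopes of the 6 genes, 26 were recomputed under the alternatives, and none of these changed sign. They were the calls and some other differences named above. Outside the 26, signs did change between limma and edgeR, and these changes were not counted. Examples are heart Twist1 (-0.46 and 1.03), heart Zeb2 (-0.12 and 0.18) and Zeb1 in HC cells outside against inside the liver (0.10 and -0.26). Of the 26, 17 were calls. With edgeR on summed UMIs 7 of these 17 were lost, and leaving out E10.5 embryo 2 or E11.5 embryo 2 lost 7 each. Leaving out E9.5 embryo 1, which gave no skin or lung cells, or keeping both columns of each identical pair changed 0. The block on embryo, which could not be fitted for day slopes, changed no call but those of Snai1 and Twist1 in HC cells.

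The cause of the shifts below was not tested. Genes called in forebrain against hindbrain NC cells (176) came to 75 without a filter on low values, 286 with log2(TPM + 1), 113 with the replicate block and 17 in the HiSeq 4000 embryos. For HC outside against inside the liver (262) they came to 408 with log2(TPM + 1), 404 with at least 5 cells per level, 1481 with the replicate block, 588 with edgeR and 620 in HiSeq 4000 embryos. Slopes on day with edgeR and in HiSeq 4000 embryos gave 591 and 197 genes in forebrain (2340), 81 and 98 in hindbrain (806), 1 and 341 in heart (1300), 0 and 60 in somite (136; 1516 at an unadjusted p under 0.05 with edgeR), 38 and 208 in skin (506), 65 and 324 in lung (582) and 101 and 323 in intestine (585). Thinning gave 1449 in forebrain and 464 in heart, and at least 5 cells per level 297 in skin. Slope differences were 17 with edgeR for forebrain minus hindbrain (118) and, for somite minus heart (329), 1 with edgeR, 206 in HiSeq 4000 embryos and 189 with thinning.

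Leaving out 1 embryo at a time gave 2732 to 3621 genes for heart (3576), 657 to 949 for somite (1103), 864 to 1250 for skin (1292), 374 to 549 for lung (562), 765 to 1163 for intestine (1239), 69 to 137 for NC and 21 to 427 for HC. Slopes gave 1118 to 2356 in forebrain, 315 to 883 in hindbrain, 400 to 1378 in heart, 45 to 208 in somite, 219 to 1156 in skin, 179 to 900 in lung and 256 to 863 in intestine, and slope differences 61 to 177 and 105 to 352.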
